A study of Mus musculus with 24 samples.

Results

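Bone of young adult mice with an osteoblast-targeted transgene was compared with wild-type bone at 3 months of age. The members are the 6 arrays whose titles name the 3-month age, 3 from HSD2OB-tg mice and 3 from wild-type mice, of 24 arrays in the series. All mice were female, were kept on standard chow and carried no further allele or treatment in the labels. The other 18 arrays cover both genotypes at 6, 12 and 18 months, with 3 arrays in each group, and were used for the spread between arrays and for a comparison across ages. RNA came from tibia and femur. The labels record flushing of marrow from the tibia only, and the tibia and femur were not measured apart. The submitters call the arrays of a group biological triplicates, without saying whether an array is 1 mouse or a pool, and p-values here speak only of the spread among these samples, some of which may be technical.

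The transgene carries Hsd11b2, which encodes 11-beta hydroxysteroid dehydrogenase type 2. This enzyme turns active glucocorticoids into forms that no longer bind their receptor, and kidney cells use it to shield the mineralocorticoid receptor. Placed in osteoblasts, the cells that make bone matrix, it lowers glucocorticoid signalling inside those cells and leaves circulating hormone in place. The labels give only the letters OB as the target. The line of this name is known to use a fragment of the type I collagen promoter, which is active in osteoblasts and osteocytes, to drive the rat enzyme. Probes made for the mouse gene read a rat transcript only where the sequences match, and that match was not tested. In mice of this age the growth plates are still present at the ends of the long bones, where cartilage cells divide, enlarge and are replaced by bone. Glucocorticoids act on these cartilage cells, on osteoblasts and on their precursors.

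Each array gave 1 log2 signal per gene, so a difference of 1 is a doubling of signal on that scale. Over the 6 arrays the median of all rows lay between 3.55 and 3.62, and pairs of arrays correlated at 0.979 to 0.988 across genes. Bone markers were well measured. All 15 osteoblast genes and all 15 osteoclast genes lay above the median level of 4.32 over all genes, as did 10 of 12 osteocyte genes. Blood cell genes were also well measured: all 12 erythroid genes, all 17 neutrophil genes and all 7 megakaryocyte genes lay above it, so RNA of marrow cells was present. Skeletal muscle RNA varied most. The mean of 18 muscle genes was 4.94, 7.92 and 8.01 on the wild-type arrays 1, 2 and 3, and 5.76, 8.36 and 9.01 on the transgenic arrays in the same order. Both arrays numbered 1 therefore held the least muscle RNA. In whole bone, fewer cells of a type and less RNA per cell cannot be told apart.

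The transgene was read first, as the check of the labels. Hsd11b2 gave 3.98, 3.73 and 3.59 on the wild-type arrays, a mean of 3.77 ± 0.20 (SD, n = 3). In transgenic bone it gave 5.52, 5.02 and 5.21, a mean of 5.25 ± 0.25 (SD, n = 3). Every transgenic array lay above every wild-type array, by more than the whole range within either group. The fitted difference was 1.48 ± 0.22 (SE), a 2.79-fold difference in signal with a 95% interval of 1.02 to 1.94 on the log2 scale. By limma, adjusted over 22180 genes with the Benjamini-Hochberg method, this gave an adjusted p of 0.0598, just outside the threshold of 0.05. An exact permutation test of the 6 values alone, two-sided, gave p = 0.1, the smallest that 20 allocations allow. Under 22 alternatives the limma adjusted p ran from 0.0198 to 0.999. It was under 0.05 without the term for the prefix of each sample's source code (0.0198), with array weights (0.0476) and with the muscle level as a covariate (0.0339). It was 0.446 in a fit of the 6 arrays at 3 months alone, 0.807 when that fit held the prefix term, 0.212 when every row was tested and 0.653 without wild-type replicate 3.

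**Figure D1:**
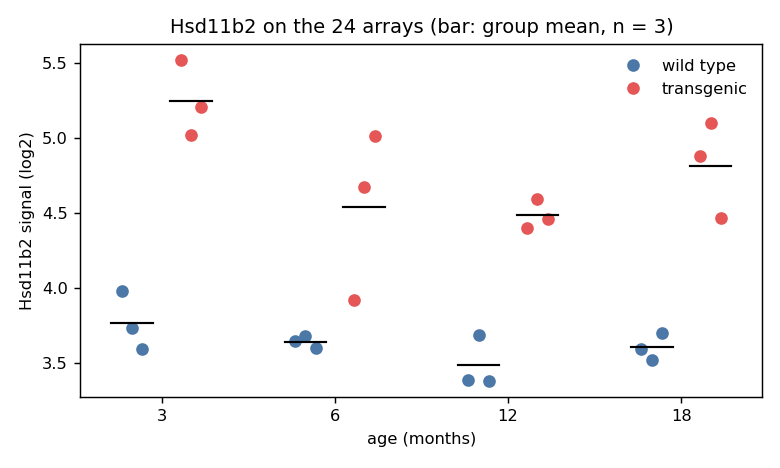
Hsd11b2 log2 signal on all 24 arrays, by age in months and genotype, with 1 point per array and a bar for each group mean (n = 3). The 3 transgenic arrays at 3 months lie between 5.02 and 5.52, above the wild-type arrays at that age, which lie between 3.59 and 3.98.

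No gene passed the threshold between genotypes at 3 months, which is 0% of 22180 genes by limma at an adjusted p under 0.05. At an unadjusted p under 0.05 there were 872 genes, or 3.93% of those tested, 443 of them higher and 429 lower in transgenic bone. All 3 transgenic arrays lay above all 3 wild-type arrays for 900 genes (4.06%) and below them for 886 genes (3.99%). The differences were evenly spread around 0, with 50.3% of genes above 0 and a median of 0.0014. Apart from Hsd11b2, no gene had a limma adjusted p below 0.880. The standard error of a gene's difference had a median of 0.193, which limits how small a difference 3 arrays per group can resolve.

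The 20 genes with the lowest p, 10 in each direction, were mostly dim: 15 had a mean signal below the median of all genes. Because they were picked by p, their separation between the genotypes is a description. Rtl3, a gene derived from a retrotransposon, gave 2.33, 2.42 and 2.37 on the wild-type arrays and 4.27, 3.32 and 3.01 on the transgenic arrays. The wild-type values were close together and the transgenic ones spread, for a difference of 1.16 ± 0.24 (SE). Zfp108, a zinc finger gene, had the widest gap of the 20, with 2.12, 2.27 and 2.30 against 3.56, 4.46 and 4.12, a difference of 1.82 ± 0.44 (SE). The brightest genes among those above 0 were Thoc2l (0.64 ± 0.15), Znhit6, which acts in the assembly of small nucleolar ribonucleoproteins (0.65 ± 0.15), and the zinc finger gene Zfp11 (0.85 ± 0.20, SE). For Znhit6 the arrays gave 5.76, 5.4 and 5.78 in wild-type bone and 6.24, 6.42 and 6.21 in transgenic bone. Trcg1, Ppef1, Pcdh17 and Apom, which encodes a lipid-carrying apolipoprotein, lay between 0.46 and 0.86.

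Among genes lower in transgenic bone, Keg1 had the largest difference of the 10, at -1.28 ± 0.31 (SE). Its wild-type arrays gave 3.69, 2.44 and 3.78 and its transgenic arrays 1.93, 2.02 and 2.12, but a second, dimmer row of Keg1 differed by 0.15. Sp6, a zinc finger transcription factor known from tooth development, gave 5.28, 4.83 and 4.45 against 3.7, 4.36 and 3.7, a difference of -0.94 ± 0.24 (SE). The lowest wild-type and the highest transgenic value, 4.45 and 4.36, lay close together. Zfp119b and the cadherin gene Cdh12 differed by -0.86 and -0.80. Srsx, Loxhd1, Tmco2, Tcstv1, Rtl9 and Cyp7a1, the rate-limiting enzyme of bile acid synthesis in liver, differed by -0.69 to -0.43 at mean signals below 2.

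No gene of glucocorticoid handling passed the test, and Hsd11b2 came closest. Of 14 measured handling genes, 5 lay above 0 and 9 below, with a median of -0.03. Nr3c1, which encodes the glucocorticoid receptor, gave 7.61, 7.49 and 7.56 in wild-type and 7.52, 7.56 and 7.55 in transgenic bone. These ranges overlapped fully, and the difference of -0.01 had a 95% interval of -0.25 to 0.23. Hsd11b1, the enzyme that regenerates active hormone, differed by 0.09 (95% interval -0.35 to 0.53), and H6pd, which supplies its cofactor, by -0.12. Nr3c2, the mineralocorticoid receptor gene, differed by 0.38 ± 0.22 (SE) on its brighter row and by -0.04 on its dimmer row. The chaperone genes Hsp90aa1 and Fkbp4 differed by -0.28 ± 0.13 and -0.20 ± 0.14 (SE), and the drug efflux pump genes Abcb1a and Abcb1b by -0.10 and -0.26.

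The glucocorticoid receptor, once it has bound hormone, induces genes by binding short palindromic DNA sites. The site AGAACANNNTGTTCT and its core ACANNNTGT, in which N is any base, read the same on both strands and the core lies within the full site. Both were searched in windows from 250 bases before to 50 after each gene start, from RefSeq for build GRCm38.p6. The full site was in 3 of 32851 windows (0.00913%), and the core in 6.85%. Of 21 response genes with a window, Sgk1 held the full site, in 1 of its 6 windows. Sgk1, Fam107a, Glul and Mt1 held the core. The shares are per window and these counts per gene, and a gene can have several windows, so the counts cannot be read against the shares. The Sgk1 and Mt1 windows are shown because both are classic targets and their values lay on opposite sides of 0. Capitals mark the full site in the Sgk1 window, at chr10:21993640-21993939 on the plus strand, starting 189 bases before the gene start. In the Mt1 window, at chr8:94178839-94179138 on the plus strand, they mark the core, starting 92 bases before the gene start.
Sgk1: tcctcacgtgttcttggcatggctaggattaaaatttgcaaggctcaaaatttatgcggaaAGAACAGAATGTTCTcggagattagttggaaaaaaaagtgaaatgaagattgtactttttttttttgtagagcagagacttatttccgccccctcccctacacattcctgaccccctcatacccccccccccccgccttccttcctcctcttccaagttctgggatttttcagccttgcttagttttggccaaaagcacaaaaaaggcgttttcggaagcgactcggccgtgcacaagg
Mt1: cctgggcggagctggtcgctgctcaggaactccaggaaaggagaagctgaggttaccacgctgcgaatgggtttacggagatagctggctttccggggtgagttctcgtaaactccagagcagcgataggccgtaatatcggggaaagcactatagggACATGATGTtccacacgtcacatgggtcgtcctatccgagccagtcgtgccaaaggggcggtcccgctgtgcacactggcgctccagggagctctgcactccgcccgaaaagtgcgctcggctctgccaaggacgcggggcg

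The 25 response genes lay on both sides of 0. Of these, 8 lay above 0 and 17 below, with a median of -0.07, and 1 had an unadjusted p under 0.05, against 3.93% of all genes. Left-out single arrays moved the count above 0 between 7 and 13 and the median between -0.18, without transgenic replicate 3, and 0.004, without wild-type replicate 3. Sgk1, a kinase that regulates ion transport, gave 5.67, 5.66 and 5.78 in wild-type bone and 5.83, 6.00 and 6.05 in transgenic bone. The groups did not overlap, and the difference was 0.25 ± 0.18 (SE). Mt1, a metal-binding metallothionein gene, gave 8.75, 8.59 and 8.86 against 8.25, 8.44 and 9.01. Its transgenic values lay on both sides of the wild-type range, and it differed by -0.17 ± 0.16 (SE). Neither Sgk1 nor Mt1 passed the test, so the window contents bear on no called difference.

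Fkbp5 and Tsc22d3 are often used to read glucocorticoid action, and both of their 95% intervals included 0. Fkbp5, which encodes a chaperone of the receptor, gave 5.93, 5.53 and 6.14 against 5.91, 5.66 and 5.95, with full overlap and a 95% interval of -0.46 to 0.40. Tsc22d3, known as GILZ, gave 3.87, 4.21 and 4.13 against 3.88, 3.69 and 4.01, a difference of -0.21 with a 95% interval of -0.62 to 0.20. A change of 1 on the log2 scale, in either direction, lies outside both intervals. These intervals are of whole-bone RNA, which held marrow and muscle RNA. They set no limit on a change within osteoblasts alone.

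Larger values among the response genes ran in both directions. Per1, a circadian clock gene, gave 6.48, 7.61 and 7.09 in wild-type bone and 6.43, 6.08 and 6.83 in transgenic bone, a difference of -0.61 ± 0.31 (SE). Its ranges overlapped, and the pair of arrays numbered 2 differed by -1.53 while the other pairs differed by -0.05 and -0.26. Klf15, a transcription factor of amino acid and fat metabolism, gave 3.17, 2.92 and 3.17 against 2.61, 2.76 and 2.36. It was the only member with all transgenic arrays below all wild-type arrays, at a dim level, and differed by -0.51 ± 0.29 (SE). Tgm2, a transglutaminase, had the lowest p of the list and differed by -0.41 ± 0.16 (SE), with 7.69, 7.68 and 7.49 against 7.12, 7.52 and 6.99. Dusp1, a phosphatase that switches off MAP kinases, lay the other way, with 6.79, 6.94 and 7.13 against 7.47, 7.36 and 7.34. All 3 of its transgenic arrays were the higher ones, for a difference of 0.44 ± 0.28 (SE). Together with Sgk1, 2 of 25 members were separated upwards and 1 downwards, against 4.06% and 3.99% of all genes.

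**Figure D2:**
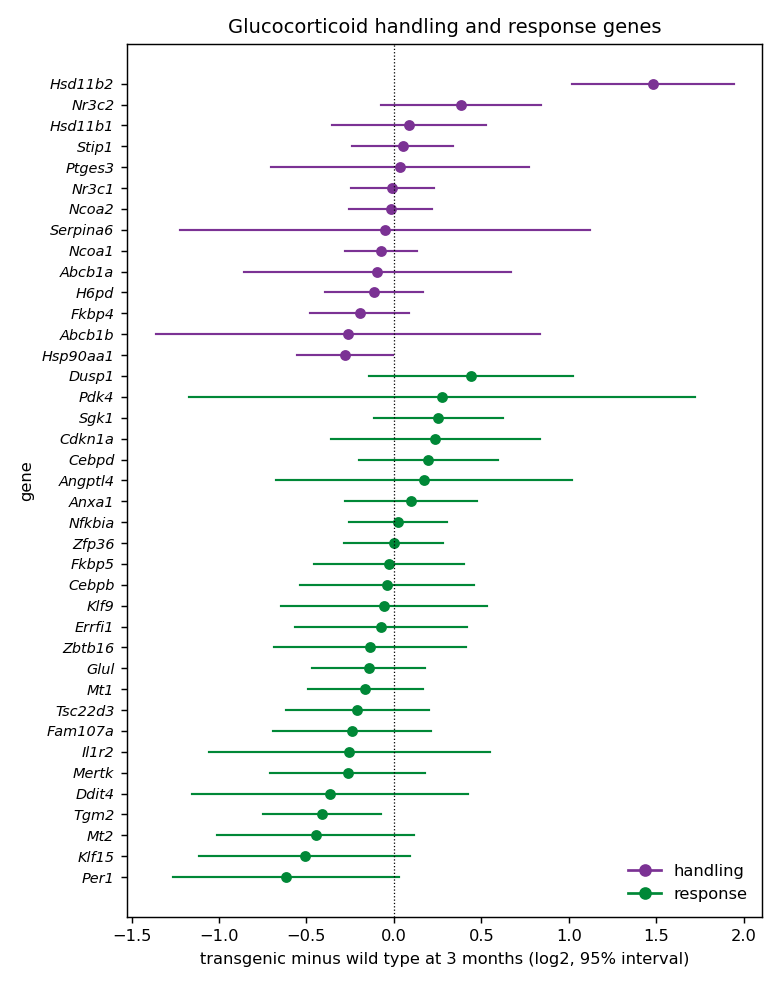
Fitted difference, transgenic minus wild type at 3 months, on the log2 scale with 95% intervals, for 14 glucocorticoid handling genes and 25 response genes. Hsd11b2 stands at 1.48, and the other members lie between -0.61 (Per1) and 0.44 (Dusp1).

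Genes of cartilage matrix had the highest median difference of the 34 lists at 3 months, and their highest signals were on 1 transgenic array. For all 20 members the difference exceeded 0, and its median was 1.30, against 50.3% of all genes above 0. Of the 20, 8 had an unadjusted p under 0.05, against 3.93% of all genes, and none was called over all genes. The members varied together across the arrays, so the 8 are not separate results. No member had its groups apart: 0 of 20 had all transgenic arrays above all wild-type arrays, against 4.06% of all genes. The mean of the list was 4.96, 6.06 and 4.78 on the wild-type arrays and 8.03, 6.63 and 5.03 on the transgenic arrays. Transgenic array 1 was the highest of the 6 for 18 members, while transgenic array 3 lay within the wild-type range for 17 and below it for 3.

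The structural collagens and proteoglycans of cartilage showed this order of arrays one by one. Col2a1, the main collagen of cartilage, gave 9.37, 9.93 and 8.11 in wild-type bone and 10.88, 10.25 and 9.14 in transgenic bone, a difference of 0.96 ± 0.59 (SE). Acan, its large aggregating proteoglycan, gave 7.89, 7.86 and 6.81 against 10.07, 8.90 and 7.32, a difference of 1.24 ± 1.00 (SE). The third transgenic array lay inside the wild-type range for both. Col9a1, a collagen on the surface of type II fibrils, gave 4.19, 5.71 and 3.15 against 8.52, 6.71 and 3.80, a difference of 2.00 ± 0.77 (SE). Matn3, an adaptor protein of cartilage matrix, gave 2.32, 4.11 and 1.76 against 7.36, 5.03 and 1.92, a range of over 5 within the transgenic group. Its difference was 2.04 ± 0.85 (SE, from the variance pooled over all ages). Hapln1, which links aggrecan to hyaluronan, and Comp, a matrix protein that binds collagens, differed by 2.04 ± 0.98 and 1.2 ± 0.90 (SE).

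Secreted cartilage products had the lowest p of the list under this pooled variance. Mia, a small protein secreted by chondrocytes, gave 1.66, 3.92 and 2.08 in wild-type bone and 6.57, 5.05 and 2.45 in transgenic bone, a difference of 2.14 ± 0.69 (SE). Ucma, a matrix protein of the growth plate, gave 2.58, 3.95 and 2.73 against 7.21, 5.34 and 2.79, a difference of 2.02 ± 0.76 (SE). In both, transgenic arrays 1 and 2 exceeded all wild-type arrays and transgenic array 3 did not. Scrg1, Snorc, Epyc and Cytl1 differed by 1.29, 1.57, 1.32 and 1.97. Col11a1 and Col11a2, which osteoblasts also express, differed by only 0.27 and 0.03, and Prg4, the lubricant of joint surfaces, by 0.50 ± 1.16 (SE).

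**Figure D3:**
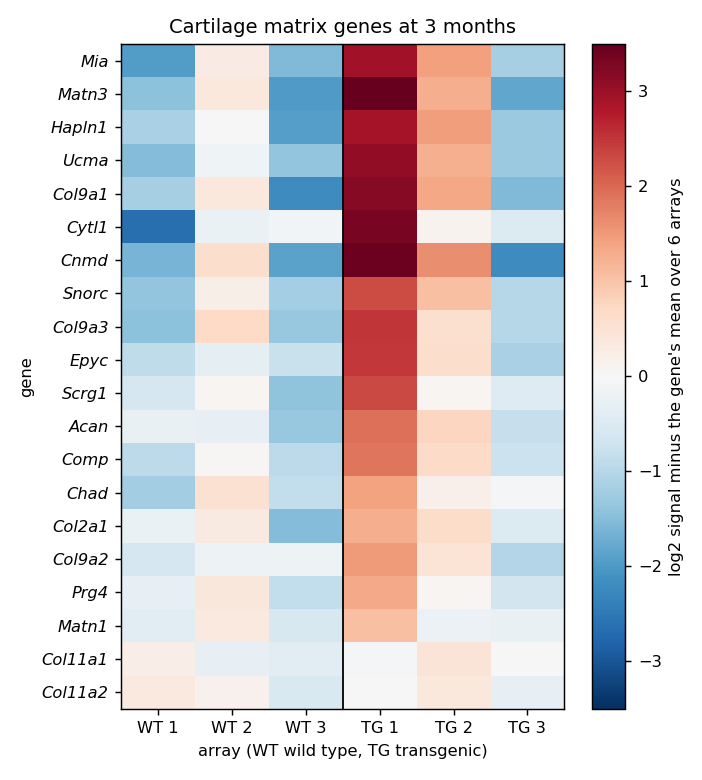
Log2 signal of 20 cartilage matrix genes on the 6 arrays at 3 months, each gene relative to its own mean over the 6 arrays, with genes ordered by their difference. Red is above and blue below that mean: transgenic array 1 is highest for 18 genes, and transgenic array 3 lies within the wild-type range for 17.

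Between arrays of the same number the cartilage matrix median was 3.14 for number 1, 0.70 for number 2 and 0.28 for number 3. Leaving out transgenic replicate 1 lowered the fitted median to 0.59, and leaving out transgenic replicate 3 raised it to 2.12. Without both arrays numbered 1, the pair lowest in muscle RNA, it was 0.44 with 16 of 20 members above 0. With the muscle level as a covariate it was 1.46. How much of the growth plate or joint surface each sample held was not recorded in the labels, and its part in the result was not tested.

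Among 18 measured regulators of cartilage growth, 14 lay above 0, with a median of 0.12. Of the 18, 2 members, Ihh and Hhip, had an unadjusted p under 0.05, against 3.93% of all genes. Sox9, the master transcription factor of chondrocytes, gave 5.98, 5.88 and 4.95 in wild-type bone and 7.04, 6.20 and 5.03 in transgenic bone, the order of arrays seen for cartilage matrix, and differed by 0.49 ± 0.62 (SE). Ihh, the hedgehog ligand of prehypertrophic chondrocytes, gave 3.04, 2.56 and 3.04 against 3.35, 3.89 and 3.07. Its groups did not overlap, though the closest values were 3.04 and 3.07, and it differed by 0.55 ± 0.25 (SE). Ptch1, the hedgehog receptor and itself a hedgehog target, gave 6.44, 6.46 and 6.32 against 7.15, 6.92 and 6.55, again without overlap, a difference of 0.47 ± 0.25 (SE). Hhip, another hedgehog target, differed by 1.01 ± 0.47 (SE), with a gap of 2.58 between the arrays numbered 1 and of 0.02 between those numbered 3. The hedgehog transcription factor genes Gli1, Gli2 and Gli3 differed by 0.06, 0.09 and 0.09. Trps1 was the only other separated member, at 0.27, so 3 of 18 were separated upwards against 4.06% of all genes.

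Among genes of hypertrophic cartilage and its removal, 7 of 8 lay above 0, with a median of 0.15. Without wild-type replicate 3 that count was 3 and the median -0.11, and without transgenic replicate 2 they were 4 and 0.02. Col10a1, the collagen of hypertrophic chondrocytes, gave 6.24, 8.03 and 5.07 against 9.32, 9.22 and 5.66, a difference of 1.62 ± 0.87 (SE). The first 2 transgenic arrays lay above all wild-type arrays and the third did not. Panx3, a channel protein of prehypertrophic chondrocytes and osteoblasts, had wild-type values close together. It gave 6.02, 6.09 and 5.93 in wild-type bone and 8.22, 7.47 and 6.71 in transgenic bone, a difference of 1.45 ± 0.58 (SE). All transgenic arrays exceeded all wild-type arrays, also on array 3, where the cartilage matrix mean was 5.03. The matrix metalloproteinase genes Mmp9, Mmp13 and Mmp14, which act in removal of cartilage, differed by 0.03, 0.03 and -0.02, and Vegfa, which draws in vessels, by 0.39 ± 0.25 (SE).

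No marker of osteoblasts, the cells to which the transgene was directed, passed the test. Of 15 measured members, 13 lay above 0 with a median of 0.15. Of the 15, 1, Panx3, had an unadjusted p under 0.05, against 3.93% of all genes. Col1a1, the main collagen of bone, gave 13.22, 13.05 and 12.90 in wild-type and 12.98, 13.15 and 12.91 in transgenic bone, with full overlap and a 95% interval of -0.77 to 0.69. Bglap, which encodes osteocalcin, gave 7.79, 6.47 and 6.14 against 6.52, 7.82 and 6.73. Its 2 highest values came from 1 array of each genotype, and it differed by 0.22 ± 0.51 (SE). Sp7, a transcription factor that osteoblasts need, differed by 0.13 (95% interval -0.75 to 1.02). Alpl, the alkaline phosphatase of mineralising cells, differed by 0.15 on its brighter row and by -0.26 on its dimmer row.

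Only a few osteoblast genes were ordered by genotype. Omd, a small proteoglycan of bone matrix, gave 7.91, 6.89 and 7.58 against 7.98, 8.16 and 8.26, so its groups did not overlap, and it differed by 0.67 ± 0.45 (SE). Vdr, the vitamin D receptor gene, was separated the other way, with 7.53, 7.54 and 7.94 against 7.19, 7.48 and 7.52, a difference of -0.27 ± 0.32 (SE). Counted with Panx3, 2 of 15 members were separated upwards and 1 downwards, beside 4.06% and 3.99% of all genes. The list median ran from -0.15 without wild-type replicate 3 to 0.37 without wild-type replicate 1, so its sign rested on single arrays.

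Osteocytes are osteoblasts that have become embedded in bone. Of their 12 genes, 9 lay above 0, with a median of 0.12, and none had groups that did not overlap. The osteocyte median was -0.07 without wild-type replicate 3, with 6 of 12 above 0, and 0.30 without wild-type replicate 1. Sost, the Wnt antagonist that osteocytes secrete, gave 6.89, 6.93 and 8.29 in wild-type and 6.69, 7.20 and 8.60 in transgenic bone. Both arrays numbered 3 were highest, and the genotype difference was 0.13 (95% interval -0.55 to 0.81). Mepe, a matrix phosphoglycoprotein, gave 7.94, 7.37 and 9.40 against 7.49, 8.13 and 9.64. Here too both arrays numbered 3, which carry a source code prefix of their own at this age, were highest, with a genotype difference of 0.18 ± 0.32 (SE). Dmp1 and Phex, which control phosphate and mineral, differed by 0.04 and 0.24, and Fgf23, the phosphate hormone, by -0.15 at a dim level.

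Osteoclasts, which resorb bone, had no gene with an unadjusted p under 0.05 among 15, 5 of them above 0 and a median of -0.07, which turned to 0.05 without transgenic replicate 3. Ctsk, the protease that digests bone collagen, gave 9.92, 10.03 and 9.98 in wild-type bone and 9.25, 10.72 and 9.77 in transgenic bone. The wild-type arrays lay close together while the transgenic arrays fell on both sides of them, and the difference was -0.07 (95% interval -0.92 to 0.79). Acp5, tartrate-resistant acid phosphatase, differed by -0.06 (95% interval -0.68 to 0.55). Of the 10 regulators of osteoclasts, 7 lay above 0 with a median of 0.12. Tnfsf11, which encodes RANKL, gave 4.28, 4.57 and 4.46 against 4.04, 4.92 and 5.18, a difference of 0.28 ± 0.36 (SE).

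**Figure D4:**
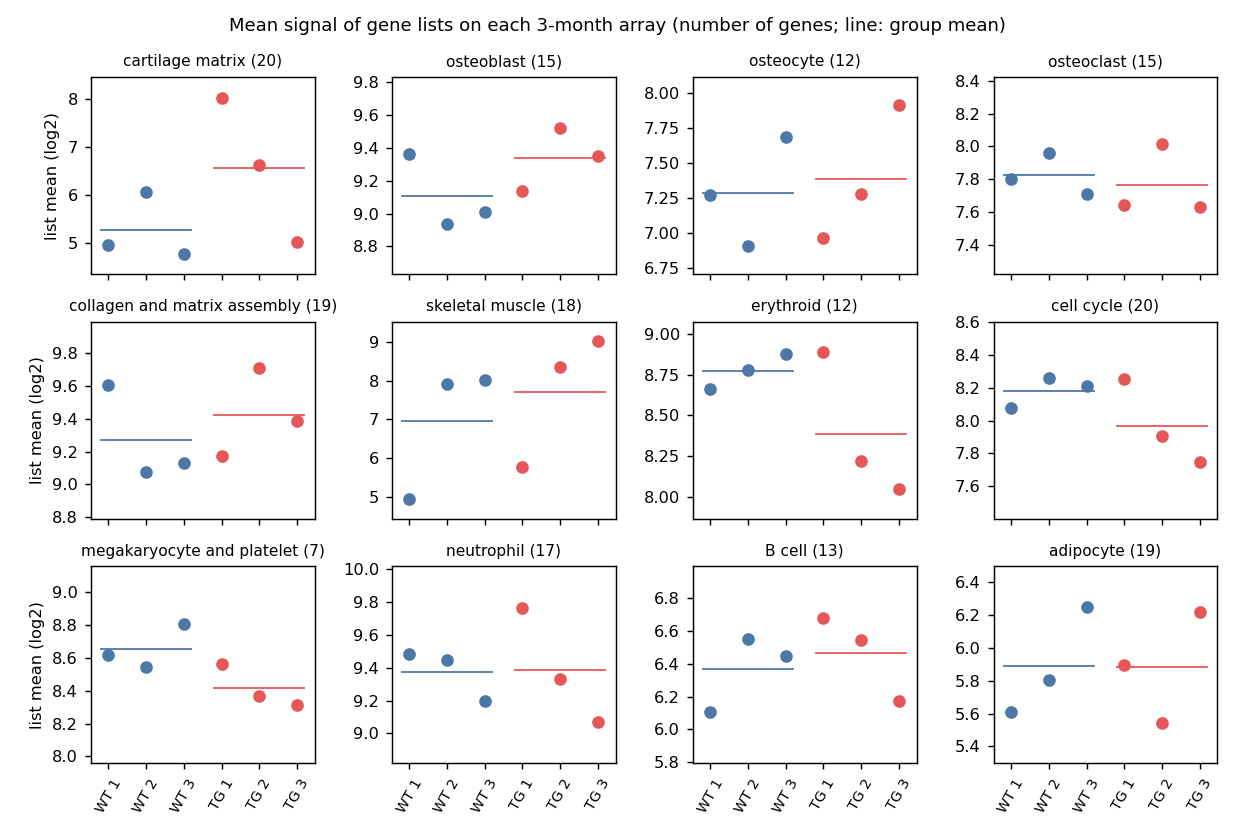
Mean log2 signal of 12 gene lists on each of the 6 arrays at 3 months, with the number of genes in each list and a line for the group mean; the vertical scales differ between panels. Cartilage matrix spans 4.78 to 8.03 and skeletal muscle 4.94 to 9.01, while osteoblast genes span 8.94 to 9.52.

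Genes of matrix and mineral gave no called difference either. In collagen and matrix assembly, 16 of 19 genes lay above 0 with a median of 0.15, no unadjusted p under 0.05 and no separated member. Without wild-type replicate 3 the collagen median turned to -0.11, with 6 of 19 above 0, and without wild-type replicate 1 it was 0.33, with 19 above. The list mean was highest on transgenic array 2 (9.71) and wild-type array 1 (9.61), and lowest on wild-type array 2 (9.07). Col6a2, a chain of a pericellular collagen, had the lowest p, with 9.03, 8.23 and 8.39 against 8.75, 9.48 and 9.08 and a difference of 0.55 ± 0.34 (SE). Among 8 mineral and phosphate genes 6 lay above 0, and 1 was separated upwards, against 4.06% of all genes. That gene was Mgp, an inhibitor of mineral deposition in cartilage and vessels. It gave 8.70, 9.33 and 8.78 against 9.62, 9.43 and 9.37, a difference of 0.54 ± 0.49 (SE). Of 13 matrix proteases and inhibitors, 10 lay above 0 with a median of 0.11, which turned to -0.06 without transgenic replicate 2 and -0.04 without wild-type replicate 3. The aggrecan-cleaving protease gene Adamts1 was the only separated member of the 13, at 0.47 ± 0.28 (SE), against 4.06% of all genes separated upwards.

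Wnt ligands drive osteoblast formation, and secreted antagonists restrain them. Of 24 Wnt pathway genes, 18 lay above 0 with a median of 0.12, which was 0.02 with 12 above without transgenic replicate 2. Frzb, a secreted Wnt antagonist made by chondrocytes, gave 5.98, 5.44 and 6.22 in wild-type bone and 6.72, 6.69 and 6.73 in transgenic bone. Unlike the cartilage matrix genes it was equally high on all 3 transgenic arrays, and it differed by 0.83 ± 0.30 (SE). It was the only separated member, against 4.06% of all genes separated upwards. It was also the only one with an unadjusted p under 0.05, against 3.93% of all genes. The Dickkopf genes Dkk1, Dkk2 and Dkk3 and the antagonist gene Wif1 differed by 0.37, 0.36, 0.44 and 0.29, with standard errors of 0.32 to 0.43. The receptor genes Lrp5 and Lrp6 differed by -0.15 and 0.17, and the target Axin2 by 0.11 on its brighter row and -0.28 on the other.

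In the BMP and TGF-beta list 17 of 23 genes lay above 0, with a median of 0.13, which ran from 0.04 without transgenic replicate 2 to 0.28 without wild-type replicate 1. Bmp2, a bone-inducing ligand, gave 6.24, 5.70 and 6.37 against 5.78, 6.70 and 7.0, a difference of 0.39 ± 0.34 (SE) with overlapping groups. Of the 23, 2 were separated upwards and 0 downwards, against 4.06% and 3.99% of all genes. Grem1, an antagonist of BMP ligands, was 1 of them, with 5.95, 5.87 and 5.82 against 6.34, 6.41 and 6.07. Its difference was 0.39 ± 0.34 (SE). Inhba, a subunit of activin, had the lowest p of the list and differed by -0.37 ± 0.20 (SE).

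Growth hormone and IGF genes, which drive longitudinal growth at this age, were balanced, with 9 of 17 above 0 and a median of 0.01. Igf1 gave 6.53, 6.70 and 6.78 in wild-type and 5.99, 6.81 and 6.83 in transgenic bone, with transgenic array 1 below and the other 2 just above the wild-type range, and the 95% interval was -0.57 to 0.32. Igf1r and Ghr, the receptors of IGF1 and growth hormone, differed by 0.04 and -0.03. Socs2, which damps growth hormone signalling, gave 5.75, 5.41 and 5.93 against 6.56, 6.21 and 6.18. The groups did not overlap on this row, with a difference of 0.62 ± 0.32 (SE), but a second row differed by -0.30 ± 0.23 (SE). Socs2 was the only separated member of the 17, against 4.06% of all genes separated upwards. Of 15 genes of leptin, insulin and other energy hormones, 4 lay above 0, with a median of -0.08, and none was separated.

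The remaining lists describe cells that share the bone with osteoblasts. All 12 erythroid genes lay below 0, with a median of -0.36, while none had an unadjusted p under 0.05 or separated groups. Their mean was 8.66, 8.78 and 8.88 in wild-type and 8.89, 8.22 and 8.05 in transgenic bone, so transgenic arrays 2 and 3 were low and transgenic array 1 was not. Klf1, the master transcription factor of red cell precursors, gave 7.01, 7.23 and 7.22 against 7.14, 6.46 and 6.12, a difference of -0.58 ± 0.31 (SE). Cell cycle genes had a like order of arrays, with 19 of 20 below 0, a median of -0.19, and list means of 8.07, 8.26 and 8.21 against 8.25, 7.90 and 7.75. All 7 megakaryocyte genes lay below 0, with a median of -0.27. The platelet receptor gene Gp9 was the only separated member, at -0.47 ± 0.27 (SE), against 3.99% of all genes separated downwards. The megakaryocyte median was -0.09, with 2 of 7 above 0, without wild-type replicate 3, and -0.12 on the arrays of the first prefix. Transgenic arrays 2 and 3 were also the highest of the 6 in muscle RNA, at 8.36 and 9.01. On the wild-type arrays the muscle means of 4.94, 7.92 and 8.01 rose in the same order as the erythroid means. Whether muscle RNA bears on the erythroid values was not tested. With the muscle level as a covariate the erythroid median was -0.28. Left-out single arrays moved it between -0.61, without transgenic replicate 1, and -0.21, without wild-type replicate 3, and it was -0.17 on the arrays of the first prefix.

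Mature white cell genes showed no common direction. Of 17 neutrophil genes, 11 lay above 0 around a median of 0.04. The integrin gene Itgb2l had their lowest p, at 0.54 ± 0.25 (SE). Among 13 B cell genes 9 lay above 0 with a median of 0.05. Of monocyte and macrophage genes 6 lay above and 8 below 0, and of T and NK cell genes 7 above and 5 below. Of 10 interferon-responsive genes 2 lay above 0, with a median of -0.07. The pairs of arrays numbered 1, 2 and 3 gave medians of 0.42, 0.24 and -0.95, and the fitted median was 0.25 without wild-type replicate 3 and 0.17 without transgenic replicate 3. Their list mean spanned 5.21 to 5.91 in wild-type bone and 5.01 to 5.66 in transgenic bone.

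Fat and stromal cells gave small values of both signs. Of 19 adipocyte genes 12 lay above 0, with a median of 0.06. Pparg, the master regulator of fat cells, gave 6.25, 6.20 and 6.54 in wild-type and 5.90, 5.86 and 5.93 in transgenic bone. Those groups did not overlap, and the difference was -0.43 ± 0.23 (SE), whereas its fat cell target Adipoq differed by -0.18 ± 0.26 with overlap. Pparg was the only separated member of the 19, against 3.99% of all genes separated downwards. Of 11 marrow stromal genes 5 lay above 0. Among 14 endothelial genes, Sox17, a transcription factor of arterial endothelium, gave 5.28, 5.39 and 5.53 against 4.41, 4.23 and 5.01. Every transgenic array was lower, for a difference of -0.85 ± 0.26 (SE), and Vwf, the platelet-adhesion protein of vessel walls, was also separated at -0.37 ± 0.27 (SE). Sox17 and Vwf were the only separated members of the 14, against 3.99% of all genes separated downwards. The endothelial median was -0.03, with 6 of 14 above 0.

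Muscle genes varied more between arrays of a genotype than between the genotypes. All 18 lay above 0 with a median of 0.72, but none had an unadjusted p under 0.05. Acta1, skeletal muscle actin, gave 7.21, 10.49 and 10.34 in wild-type and 8.26, 10.80 and 11.17 in transgenic bone, a difference of 0.73 ± 0.84 (SE). Between arrays of the same number the median was 0.92 for number 1, 0.25 for number 2 and 1.01 for number 3. Transgenic arrays 3, 2 and 1 exceeded all wild-type arrays for 18, 17 and 0 of the 18 genes. Without wild-type replicate 1 the list median turned to -0.22, and without transgenic replicate 1 it was 1.66. Each of these 2 fits kept the other array numbered 1, which was also low in muscle RNA. Of 9 tendon and ligament genes 7 lay above 0 with a median of 0.35, which was 0.02 with the muscle level as a covariate.

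The immediate early genes, which respond to stress and handling within minutes, had 8 of 13 members above 0 and a median of 0.18. Atf3, a stress-induced transcription factor, gave 4.18, 4.13 and 4.73 in wild-type bone and 5.09, 5.35 and 5.50 in transgenic bone. The groups did not overlap, and the difference was 0.97 ± 0.30 (SE). Of the 13 members 2 were separated upwards, Atf3 among them, against 4.06% of all genes. Dusp1, given above among the glucocorticoid response genes, is induced in the same way by stress. Fos-family gene Fosb spread widely, from 2.91 to 4.83 in wild type and from 3.81 to 5.12 in transgenic bone. Egr1 differed by 0.40 ± 0.41 (SE).

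**Figure D5:**
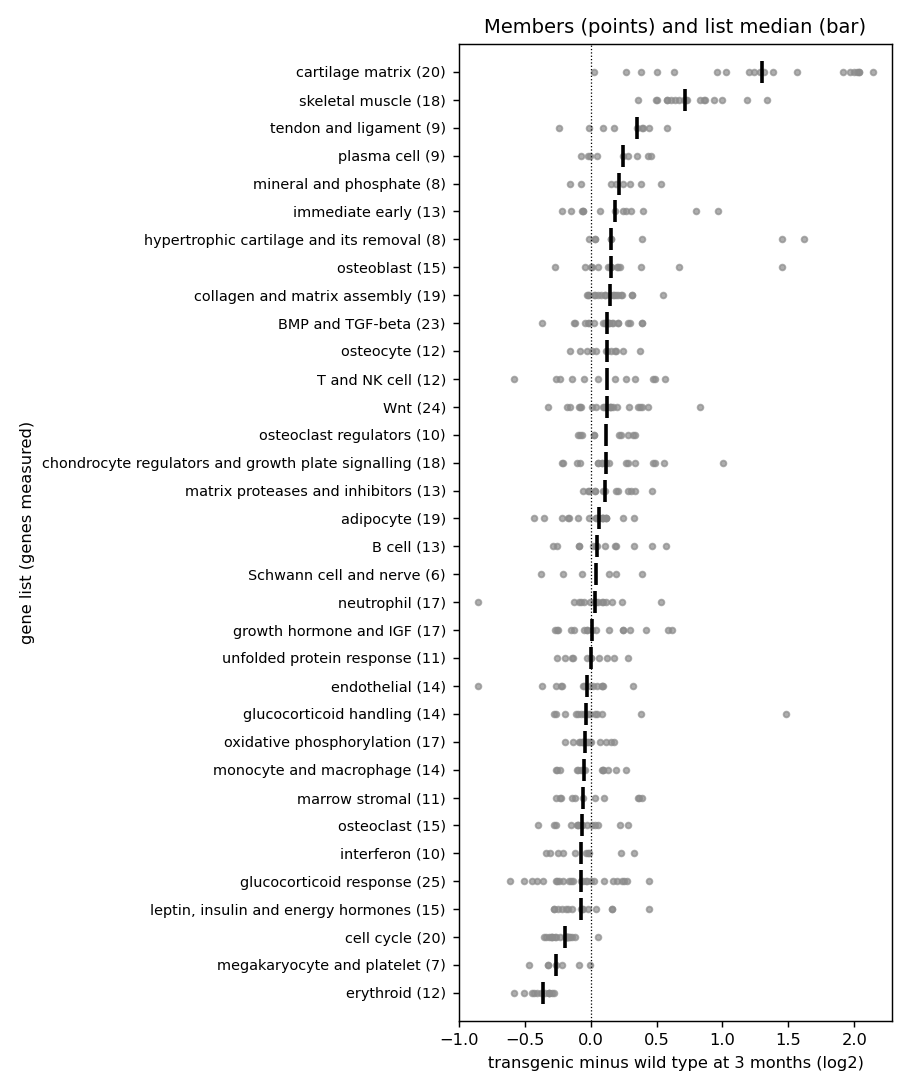
Fitted differences, transgenic minus wild type at 3 months on the log2 scale, of each member (points) and the median (bar) of 34 gene lists, ordered by the median. Cartilage matrix stands at 1.30 and skeletal muscle at 0.72 at the top, and erythroid genes at -0.36 at the bottom.

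Over all 34 lists, 21 had a median above 0, and no list held a called member. Leaving out some single array, with the same-numbered array of the other genotype kept, changed the sign of the median for 21 of the 34. Under each such fit the median stayed above 0 for cartilage matrix, chondrocyte regulators, osteoclast regulators, mineral and phosphate, Wnt, and BMP and TGF-beta genes. It also did so for tendon and ligament, plasma cell and immediate early genes. It stayed below 0 for erythroid, megakaryocyte, cell cycle and energy hormone genes. Some came near 0, such as 0.006 for osteoclast regulators without wild-type replicate 3.

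Whether the genotype difference at 3 months stood apart from later ages was tested by taking the mean of the differences at 6, 12 and 18 months from it. The source code prefix is uneven over the genotypes at 6 and 12 months, and the fit adjusts for it. No gene passed (0% of 22180 by limma at an adjusted p under 0.05), while 820 had an unadjusted p under 0.05. The lowest adjusted p was 0.728, for Gal3st2, a sulfotransferase gene, which differed by -0.83 at 3 months and by 0.61, 0.23 and 0.52 at 6, 12 and 18 months. Differences given for these later ages are between plain group means, while each gap to 3 months and its error come from the fit. Hsd11b2 differed by 0.89, 1.00 and 1.21 at those ages against 1.48 at 3 months. The gap of 0.44 ± 0.26 (SE, unadjusted p = 0.107 by limma) did not pass.

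The 5 genes with the lowest p for this gap in each direction included 5 already named at 3 months. Rtl3 differed by 1.16 at 3 months and by -0.06, -0.06 and -0.14 later, and Zfp108 by 1.82 and then by -1.30, -0.69 and 0.56. Gem, Ttc26 and Slc22a13b were the other 3 with the lowest p on the positive side, with gaps of 1.01, 0.62 and 0.97. On the negative side Cdh12, Tpbpb, Zfp119b and Loxhd1 followed Gal3st2, with gaps of -1.0, -0.82, -0.97 and -0.55. Of the genes described by role, Atf3 differed by -0.14, 0.06 and 0.07 at the later ages (gap 1.10 ± 0.35, SE) and Sox17 by 0.00, 0.06 and 0.13 (gap -1.0 ± 0.30, SE). Neither gap passed after adjustment over all genes.

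In wild-type bone the cartilage matrix mean lay higher on every 3-month array (4.78 or more) than on any later array (4.76 or less), by a narrow margin. In transgenic bone the lowest 3-month array (5.03) also lay above every array at 6 and 12 months (4.91 or less). There the overlap was with the highest 18-month array (6.48), while the median 18-month array gave 4.94. The list mean was 5.27 ± 0.70 in wild type and 6.56 ± 1.5 in transgenic bone at 3 months (SD, n = 3 each). At 6 months it was 4.46 ± 0.27 and 4.42 ± 0.68, at 12 months 4.22 ± 0.08 and 4.32 ± 0.30, and at 18 months 4.14 ± 0.38 and 5.09 ± 1.33 (SD, n = 3 each). The median difference between genotypes was 0.06, 0.16 and 0.89 at 6, 12 and 18 months, against 1.30 at 3 months. For the gap to the mean of the later ages the median over members was 1.19, and 18 of 20 lay above 0. Over all genes the median gap was -0.0007. The gap uses the same 3-month arrays, of which transgenic array 1 was the highest for 18 members, so it is not separate evidence. The spread between transgenic arrays was widest at 3 and 18 months, the ages with the larger differences. Erythroid medians were 0.17, -0.22 and 0.04 later, osteoblast medians -0.52, 0.33 and 0.05, and glucocorticoid response medians -0.08, 0.06 and -0.09.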

How the data were processed

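The series holds log2 values of 24 arrays (Affymetrix Mouse Gene 2.1 ST), in 8 groups of 3, made from total RNA extracted with Trizol, per the labels' protocols. The log2 values are those deposited by the authors. The submitters' processing notes name MAS5 alone, without a version. How signals were background-corrected, summarised and scaled is not stated there. The log base was inferred from values between 0.0921 and 13.7.

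Of 41034 rows, 23521 carried 1 gene symbol, 1814 several and 15699 none in the platform annotation, and 23328 matched RefSeq GRCm38.p6 by Entrez identifier. The brightest row stood for each of 1082 genes with several rows, leaving 22180 genes. The lmFit and eBayes functions of limma 3.58.1 (R 4.3.3) were run on all 24 arrays, with a term for each group and for the source code prefix, whose 3 levels are not explained in the labels. At 3 months the prefix is balanced: 2 arrays per genotype carry 1 prefix and 1 array carries another. There were 14 residual degrees of freedom, and each gene's variance was pooled over all groups. Where a gene's arrays spread more at 3 months than at other ages, its standard error can be too small for that age. P-values are two-sided and were adjusted over all genes by Benjamini-Hochberg, with a threshold of 0.05. Permutation and searches used Python 3.11.15 with scipy 1.17.1.

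The members, the 34 gene lists (488 of 524 entries matched) and the rules were chosen with earlier results of these data known, so lists are described by counts and medians and not tested. Named were Hsd11b2, the 10 genes of lowest p in each direction, 5 in each direction for the gap between ages, members of the bone, cartilage and glucocorticoid lists, and the 4 members of lowest p of other lists. Small RNA genes, predicted genes, immunoglobulin segments and receptor families were not named, which left out 0 higher and 5 lower genes at 3 months. Members given outside this rule were chosen after their values were seen. There were 22 alternatives, 1 of them added after the data were seen: leaving out both arrays numbered 1.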

Additional observations from a re-analysis of the deposited data

How the results depend on the processing

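Hsd11b2 lay higher in transgenic bone under all 22 alternatives. Its difference was 1.48 with no prefix term (adjusted p = 0.0198), 1.44 with array weights (0.0476) and 1.54 with the muscle covariate (0.0339), where it became the 1 called gene at 3 months. Leaving out 1 array moved it between 1.32 and 1.61, with adjusted p from 0.0773 to 0.653, and the count of called genes between 0 and 1: Platr4 without wild-type replicate 2 and Sdr9c7 without transgenic replicate 1. Fitted on the 4 arrays of the first prefix alone it was 1.41 (adjusted p = 0.999, 2 residual degrees of freedom), and in the pair of the other prefix 1.61, with no test. Same-numbered arrays share a prefix at 3 months, and their deviations from the group means correlated at 0.141, 0.0775 and 0.278 over genes. Both arrays numbered 1 were lowest in muscle RNA, and both numbered 3 were highest for Sost and Mepe. Whether the numbers mark pairs was not settled by these values. The main fit did not pair the arrays, and a replicate block was an alternative. With a replicate block Hsd11b2 had an adjusted p of 0.0714, no gene was called at 3 months, and 1 gene, Zfp108, was called for the gap between ages. Fits of the 6 arrays at 3 months alone gave Hsd11b2 an adjusted p of 0.446, or 0.807 with the prefix term. The median changed sign without some single array, its same-numbered array being kept, for 21 of the 34 lists. Medians of cartilage matrix ran from 0.59 to 2.12, of muscle from -0.22 to 1.66 and of osteoblast genes from -0.15 to 0.37 when single arrays were left out. Genes with an unadjusted p under 0.05 numbered 773 to 1175 at 3 months against 872, except where the number tested changed: 605 with the dimmest 25% of genes left out and 1764 with every row tested. Precision is limited by having 3 arrays per group, and dim genes were kept without a detection call.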
